A study of Mus musculus with 6 samples.

Results

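The 35 nuclear genes described here encode subunits of respiratory complexes III, IV and V together with cytochrome c, and their expression was compared between regulatory T cells (Tregs) from mice without DJ-1 and from their wild-type littermates. A gene was included where the array's platform annotation gave its probe sets that symbol, current or older, and no other symbol. By this rule 33 of the 35 genes were measured, with 230 probe sets out of 269751, and all 33 were among the 13891 genes tested. Complex III with cytochrome c had 9 measured genes of 10 listed, complex IV 9 of 10 and complex V 15 of 15. Uqcr10 and Cox6c had only probe sets that also carry the symbol of a predicted gene.

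In the inner mitochondrial membrane, complex III takes electrons from ubiquinol and passes them to cytochrome c, and complex IV passes them from cytochrome c to oxygen. Both move protons across the membrane, and complex V, the ATP synthase, lets protons return and makes ATP. Most of the subunits are encoded in the nucleus and assembled with a few subunits encoded by mitochondrial DNA, and Tregs are known for relying on oxidative metabolism.

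The 2 groups were 3 KO mice (DJ-1-/-, with no functional copy of the gene Park7) and 3 WT littermates (DJ-1+/+). All were untreated males of 45 weeks kept free of specific pathogens, and CD4+ cells with high CD25 were sorted from each spleen. RNA of each mouse was hybridised to 1 Affymetrix Mouse Gene 2.0 ST array, so every value below rests on 3 mice per group and the p-values reflect the spread between mice. How the DJ-1-/- allele was made, and in which cells DJ-1 is missing, is not given in the sources used here. Values are log2(intensity + 16), called log2 units, a gene's value is the median of its probe sets, and a difference is KO minus WT.

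Park7 was at 6.06, 5.96 and 5.71 log2 units in KO replicates 1 to 3, against 9.48, 9.27 and 9.70 in WT replicates 1 to 3, a difference of -3.57 (SE 0.16, limma adjusted p = 2.06e-05). The Treg markers were present in both groups, with Foxp3, the defining transcription factor, at 12.75, 12.69 and 12.73 in KO and at 12.67, 12.68 and 12.64 in WT. Of the 6 Treg markers 5 had lower means in KO: Foxp3 differed by 0.06, Il2ra and Ctla4 by -0.00 each, Ikzf2 by -0.20, Cd4 by -0.12 and Cd3e by -0.19. None of the 6 was called, but all KO arrays lay above WT for Foxp3 and below WT for Ikzf2 and Cd3e. KO replicate 1 stood apart from the other arrays. Its mean correlation with them over the tested genes was 0.958, against 0.974 to 0.976 for the others, its median intensity of 88.6 was the lowest of a range that reached 100.2, and the leading principal component (45.6% of the variance) set it apart. Results on the respiratory genes are therefore given with and without it. The summed intensity of the Treg markers was lower in every KO array (27758 to 29076) than in every WT array (29826 to 30034). The same held for marker lists of other cells, namely macrophages and monocytes (7 genes measured, 346 to 376 in KO and 466 to 711 in WT), NK and cytotoxic cells (7 genes, 1225 to 1663 and 1943 to 2591) and CD8 T cells (2 genes, 361 to 436 and 458 to 505). A sum weighs bright genes most, and single genes of these lists differed in direction: all 5 tested macrophage and monocyte genes had lower means in KO, against 4 of 6 tested NK and cytotoxic genes (Klrb1c at 0.28 and Eomes at 0.03) and 1 of 2 CD8 genes (Cd8b1 at -0.30, Cd8a at 0.03). Several macrophage and monocyte genes were dim. Csf1r and C1qc had means of 5.84 and 5.91 in KO, and Adgre1 and Lyz2 fell below the filter on dim genes (5.90 log2 units). The sums overlapped for B cells (5 genes, 964 to 1119 in KO and 963 to 1343 in WT), plasma cells (5 genes, 1641 to 2188 and 1949 to 2771) and erythroid cells (3 genes, 85.4 to 139 and 126 to 132). In these lists Vcam1 and Gzmk passed the test, at -1.15 and -2.09 (limma adjusted p = 0.0343 and 0.00208). The CD8 sum was mostly Cd8b1, with means of 8.46 in KO and 8.76 in WT, against 6.29 and 6.26 for Cd8a. The part of other cells in the differences below was not tested. In bulk RNA fewer cells of a type, less RNA per cell and a change within the Tregs themselves cannot be told apart.

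Nuclear respiratory genes are known for promoters with sites for NRF1, for the ETS factor GABP and for YY1. RefSeq promoters of GRCm38.p6, 250 bases before to 50 after each start, were found for 28 of the 35 genes. They were searched on both strands for GCATGCGC, one part of the palindromic NRF1 site, for CCGGAAG, the ETS core bound by GABP, and for AAGATGGC, a YY1 site. The NRF1 letters were in 7 of the 28 promoters (25.0%), against 2.71% of all 32851 promoters and 4.79% of the 13446 promoters of tested genes. The ETS letters were in 10 (35.7%), against 8.86% and 16.4%, and the YY1 letters in 3 (10.7%), against 2.75% and 4.08%. At least 1 of the 3 was in 15 promoters (53.6%), against 13.3% and 23.1%. The promoters of the 4 genes with the largest differences between the groups are shown on the gene's strand, 5′ to 3′, with matches in capitals.
Atp5j2, chr5:145191492-145191791, minus strand: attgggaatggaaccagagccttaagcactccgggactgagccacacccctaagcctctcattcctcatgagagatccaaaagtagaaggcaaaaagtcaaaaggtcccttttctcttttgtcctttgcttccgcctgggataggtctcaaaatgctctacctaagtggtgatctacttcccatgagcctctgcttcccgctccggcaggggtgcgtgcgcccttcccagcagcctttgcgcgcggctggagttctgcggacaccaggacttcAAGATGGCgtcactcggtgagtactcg
Cycs, chr6:50566520-50566819, minus strand: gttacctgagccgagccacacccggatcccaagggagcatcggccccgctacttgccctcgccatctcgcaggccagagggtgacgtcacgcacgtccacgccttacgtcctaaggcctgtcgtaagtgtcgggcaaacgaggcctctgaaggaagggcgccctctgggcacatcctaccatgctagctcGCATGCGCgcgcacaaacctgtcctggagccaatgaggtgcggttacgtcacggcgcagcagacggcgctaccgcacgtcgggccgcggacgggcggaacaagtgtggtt
Atp5l, chr9:44920693-44920992, minus strand: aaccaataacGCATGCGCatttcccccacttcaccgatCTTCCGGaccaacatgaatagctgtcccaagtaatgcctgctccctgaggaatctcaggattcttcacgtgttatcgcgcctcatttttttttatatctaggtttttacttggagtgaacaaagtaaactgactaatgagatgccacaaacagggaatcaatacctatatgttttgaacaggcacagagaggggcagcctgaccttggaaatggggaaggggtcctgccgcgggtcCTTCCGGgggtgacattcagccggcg
Atp5f1, chr3:105959214-105959513, minus strand: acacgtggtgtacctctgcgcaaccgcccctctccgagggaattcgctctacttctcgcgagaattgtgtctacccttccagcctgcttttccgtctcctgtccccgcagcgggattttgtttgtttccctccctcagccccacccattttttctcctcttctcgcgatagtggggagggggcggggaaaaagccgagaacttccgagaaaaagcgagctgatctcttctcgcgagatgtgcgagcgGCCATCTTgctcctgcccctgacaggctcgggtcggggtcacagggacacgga
Atp5j2 and Atp5f1 (Atp5pb in RefSeq) hold the YY1 letters close to the start, Cycs holds the NRF1 letters, and Atp5l holds the NRF1 letters and the ETS letters at more than 1 place. With the same YY1 letters, Atp5j2 had a higher mean in KO and Atp5f1 a lower one. The 7 genes with the NRF1 letters had a median difference of -0.13, against -0.18 for the 20 measured genes without them, and the 10 with the ETS letters one of -0.15, against -0.19 for 17. The 3 with the YY1 letters (Atp5f1, Atp5j and Atp5j2) had a median of 0.14, against -0.18 for 24. A match says only that these letters are in the window.

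No subunit gene passed the test between KO and WT. With a limma adjusted p under 0.05, 0 of 33 were called, against 0.274% of all genes tested (38 genes), of which 0.266% were lower in KO and 0.0072% higher (97.4% of the calls lower, 87.3% with quantile normalization). The smallest adjusted p among the 33 was 0.154, of Atp5j2, and the largest 0.974, of Atp5d. At an unadjusted p under 0.05, 3 of 33 (9.09%) were counted, against 10.7% of all genes: Cox7a2 and Atp5f1, lower in KO, against 7.67% of all genes in that direction, and Atp5j2, higher in KO, against 2.99%. All 3 KO arrays lay on the same side of all 3 WT arrays in 7 of 33 (21.2%), against 17.4% of all genes. Of these, 6 lay lower in KO (18.2%, against 11.3%), namely Uqcrc1, Uqcrc2, Cycs, Cox6b1, Cox7a2 and Cox8a, and 1 higher, Atp5j2 (6.1% of all genes).

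**Figure D1:**
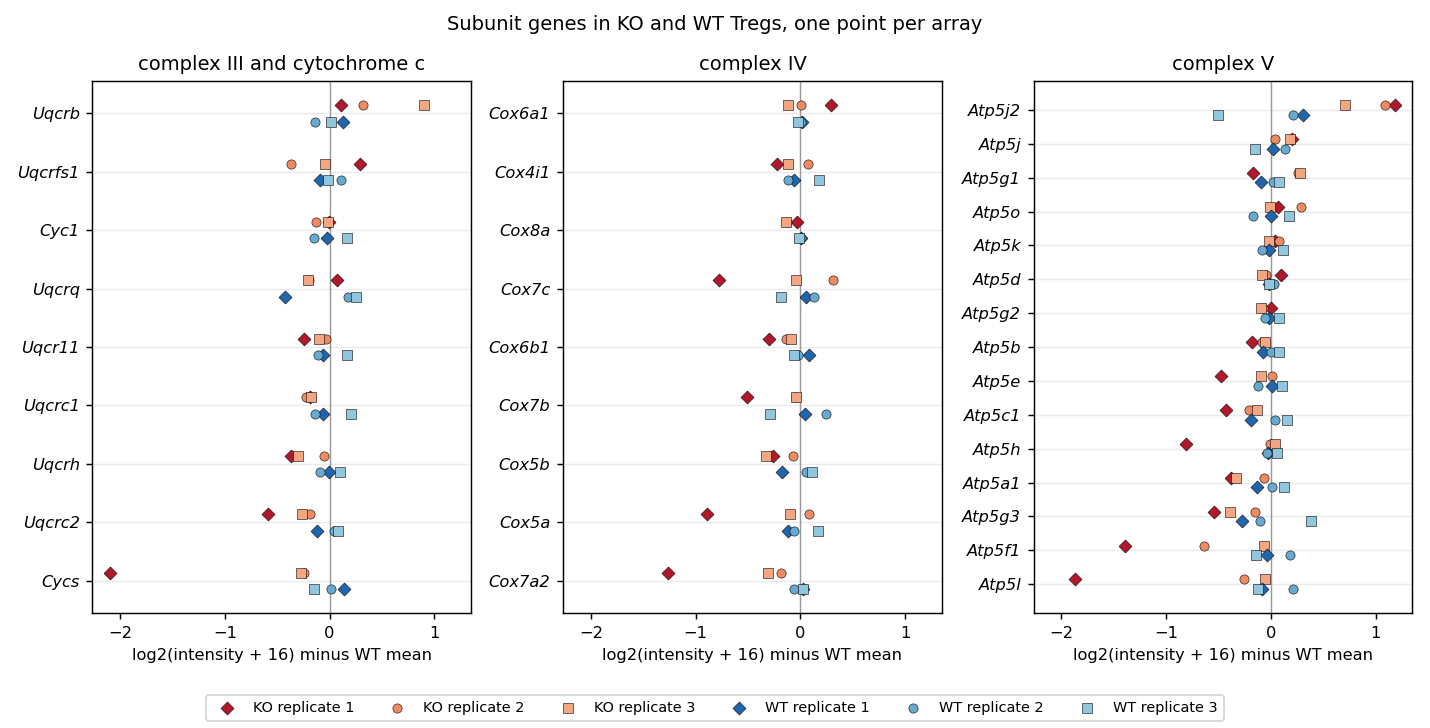
Value of each subunit gene on each array as log2(intensity + 16) minus the WT mean of that gene (horizontal axis), for complex III with cytochrome c, complex IV and complex V. Points are single arrays (KO red and above, WT blue and below). KO replicate 1 lies left of the other 5 arrays for Cycs, Cox7a2, Atp5l and Atp5f1, and all 3 KO arrays of Atp5j2 lie right of its WT arrays.

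Most differences were small and negative. Of the 33 genes 26 (78.8%) had a lower mean in KO, against 59.7% of all genes tested. The median difference was -0.17, against -0.05 for all genes (-0.11 against -0.0097 with quantile normalization, -0.13 against -0.017 with median centring). The median of all genes was -0.031 with no filter on dim genes and -0.073 with the filter at the 60th percentile. The respiratory genes were not set against genes of like brightness. By complex, 8 of 9 were lower for complex III with cytochrome c (median -0.13) and 8 of 9 for complex IV (-0.17). For complex V 10 of 15 were lower (median -0.11), and this count depended on the summary. With the mean of the probe sets Atp5j, Atp5o and Atp5k of complex V turned negative (-0.23, -0.12 and -0.019). Atp5g1 and Atp5j2 stayed positive (0.02 and 0.26), and Cox7c of complex IV turned positive (0.014). Without KO replicate 1 the median was -0.07 over the 33 genes (25 lower, 75.8%), against -0.01 for all genes (51.7% lower). For complex III it was then -0.20, for complex IV -0.05 and for complex V -0.07. Thus the median of complex IV moved the most towards 0 without this array, and that of complex III moved away from it.

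Array by array, the median over the 33 genes relative to their WT means was -0.24, -0.07 and -0.09 in KO replicates 1 to 3, against -0.02, 0.00 and 0.07 in WT replicates 1 to 3. The same median over all tested genes was -0.12, 0.00 and -0.01 in KO and -0.05, 0.03 and 0.02 in WT. Every KO array was thus below every WT array for the respiratory genes, and KO replicates 2 and 3 lay within the WT range for all genes. KO replicate 1 gave the lowest of the 6 values for 19 of the 33 genes (57.6%), against 38.2% of all genes. Its distance from the mean of the other 5 arrays ran from -2.00 (Cycs) to 0.83 (Atp5j2), with a median of -0.21, against -0.11 for all genes. The SD was larger in KO than in WT for 18 of 33 genes (54.5%), against 61.1% of all genes.

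**Figure D2:**
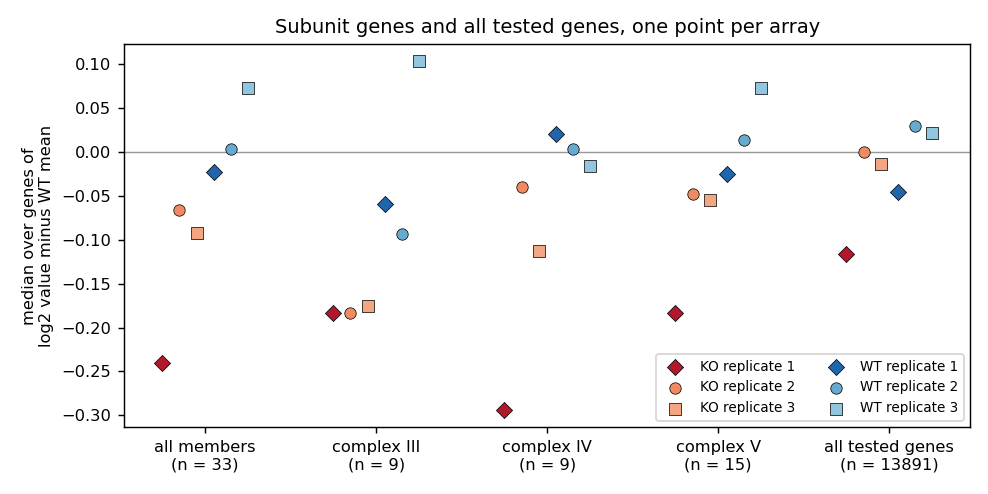
Median over genes of the log2 value minus each gene's WT mean (vertical axis, log2 units), for all 33 measured subunit genes, for each complex and for all 13891 tested genes. Each point is 1 array, KO left and WT right in each column. KO replicate 1 is lowest for all subunit genes (-0.24) and for all tested genes (-0.12), and KO replicates 2 and 3 lie at -0.07 and -0.09 for the subunit genes.

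In complex III, the core proteins Uqcrc1 and Uqcrc2, large subunits on the matrix side, lay lower in every KO array. Uqcrc1 had 10.62, 10.59 and 10.63 log2 units in KO replicates 1 to 3, against 10.74, 10.67 and 11.01 in WT replicates 1 to 3. The KO arrays were nearly equal (SD 0.025), and the gap to WT replicate 2 was small. The difference was -0.19 (SE 0.14, limma adjusted p = 0.665), -0.20 without KO replicate 1 and -0.092 without WT replicate 3. Uqcrc2 had 10.02, 10.43 and 10.35 in KO, against 10.49, 10.65 and 10.70 in WT. The groups did not overlap, and KO replicate 1 was lowest. Its difference was -0.34 (SE 0.15, limma adjusted p = 0.468), -0.22 without KO replicate 1 and -0.16 with the mean of the probe sets.

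Of the 2 subunits of complex III that carry the electrons on to cytochrome c, Uqcrfs1, the Rieske iron-sulfur protein, differed by -0.04. That value depended on the summary and the arrays: it was -0.24 with the mean of its 5 probe sets (4 lower in KO, limma adjusted p = 0.387), -0.21 without KO replicate 1 and 0.12 without KO replicate 2. Cyc1, cytochrome c1, differed by -0.05, and the groups of both genes overlapped. Uqcrh, the hinge protein bound to cytochrome c1, differed by -0.24, and the small subunits Uqcrq and Uqcr11 by -0.11 and -0.13. With the mean of the probe sets Uqcrh was at -0.13 and Uqcr11 at -0.046. The adjusted p-values of these 5 genes in limma ran from 0.599 to 0.951.

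Uqcrb, a small subunit near the ubiquinone site, was the only measured complex III gene with a higher mean in KO. It had 6.03, 6.24 and 6.82 log2 units in KO replicates 1 to 3, against 6.05, 5.78 and 5.93 in WT replicates 1 to 3. KO replicate 1 lay below WT replicate 1, so the groups overlapped. The difference was 0.44 (SE 0.20, limma adjusted p = 0.483), and 0.22 without KO replicate 3. This value rests on 1 probe set close to the filter on dim genes (5.90 log2 units). The other Uqcrb probe set, shared with the predicted gene Gm10767, had the opposite sign: 5.89, 6.17 and 6.43 in KO, against 6.55, 6.67 and 6.53 in WT, a difference of -0.42 (limma adjusted p = 0.667 over all probe sets). Uqcr10, another small subunit, was seen only through 5 probe sets shared with Gm6293, which differed by -0.37 to -0.24, all lower in KO (smallest limma adjusted p 0.692 over all probe sets).

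Cycs, the somatic cytochrome c that carries electrons from complex III to complex IV and helps to activate caspases when released, had the largest negative difference of the 33 genes. It had 8.43, 10.28 and 10.25 log2 units in KO replicates 1 to 3, against 10.66, 10.54 and 10.38 in WT replicates 1 to 3. KO replicate 1 lay far below all other arrays, and the other KO arrays just below WT. The difference was -0.87 (SE 0.42, 95% interval -1.81 to 0.07, limma adjusted p = 0.510). Without KO replicate 1 it was -0.26, and with the mean of the probe sets in place of their median -0.29.

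In complex IV, Cox7a2, the isoform of subunit 7a found outside heart and skeletal muscle, had the largest difference. It had 8.76, 9.84 and 9.71 log2 units in KO replicates 1 to 3, against 10.05, 9.96 and 10.05 in WT replicates 1 to 3. All KO arrays lay below WT, KO replicate 1 by the most. The difference was -0.59 (SE 0.25, limma adjusted p = 0.448), and -0.25 without KO replicate 1. All 5 of its probe sets were lower in KO, by 0.24 to 0.57 log2 units in size, and KO replicate 1 was lowest in each of the 5.

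Cox6b1, the subunit facing the intermembrane space near the cytochrome c site, and Cox8a, the common isoform of the smallest subunit, also lay apart in the groups. Cox6b1 had 9.32, 9.48 and 9.54 log2 units in KO replicates 1 to 3, against 9.70, 9.60 and 9.56 in WT replicates 1 to 3, a difference of -0.17 (limma adjusted p = 0.690). Cox8a had 11.61, 11.51 and 11.51 in KO, against 11.64, 11.65 and 11.62 in WT, a difference of -0.10 (limma adjusted p = 0.818). The gap between the nearest arrays of the groups was small in both. Without KO replicate 1 the difference of Cox6b1 was -0.11 and that of Cox8a -0.13.

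Cox6a1, the isoform of subunit 6a in most tissues, was the only measured complex IV gene with a higher mean in KO. It had 12.00, 11.72 and 11.59 log2 units in KO replicates 1 to 3, against 11.73, 11.71 and 11.69 in WT replicates 1 to 3. The highest array was KO replicate 1 and the lowest KO replicate 3. The difference was 0.06 (SE 0.15, limma adjusted p = 0.911) and became -0.05 without KO replicate 1. Cox5b, a zinc-binding subunit on the matrix side, had 6.68, 6.88 and 6.61 in KO, against 6.77, 7.001 and 7.06 in WT. The groups overlapped, with a difference of -0.22 (SE 0.15, limma adjusted p = 0.638).

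For Cox5a and Cox7c the difference was near 0 or of the other sign without KO replicate 1. Cox5a, a matrix-side subunit, had 8.28, 9.25 and 9.07 log2 units in KO replicates 1 to 3, against 9.05, 9.11 and 9.34 in WT replicates 1 to 3, a difference of -0.30 that was -0.01 without KO replicate 1. Cox7c, a small membrane subunit, had 8.02, 9.11 and 8.75 in KO, against 8.85, 8.92 and 8.61 in WT, a difference of -0.17 that was 0.14 without KO replicate 1. In both genes KO replicates 2 and 3 lay among the WT arrays or above them. Cox4i1, the common isoform of the regulatory subunit 4, differed by -0.09 and Cox7b by -0.20 (-0.020 and -0.042 without KO replicate 1, -0.22 and -0.35 with the mean of the probe sets). Cox6c was seen only through 5 probe sets shared with Gm6265, which differed by -0.34 to -0.05, all lower in KO (smallest limma adjusted p 0.718 over all probe sets). In the brightest, 17316437 and 17547699 (WT means 12.94 and 12.15), all KO arrays lay below WT, with differences of -0.34 and -0.28. In the dimmer ones the groups overlapped. KO replicate 1 was lowest of the 6 arrays for 6 of the 9 complex IV genes (66.7%).

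**Figure D3:**
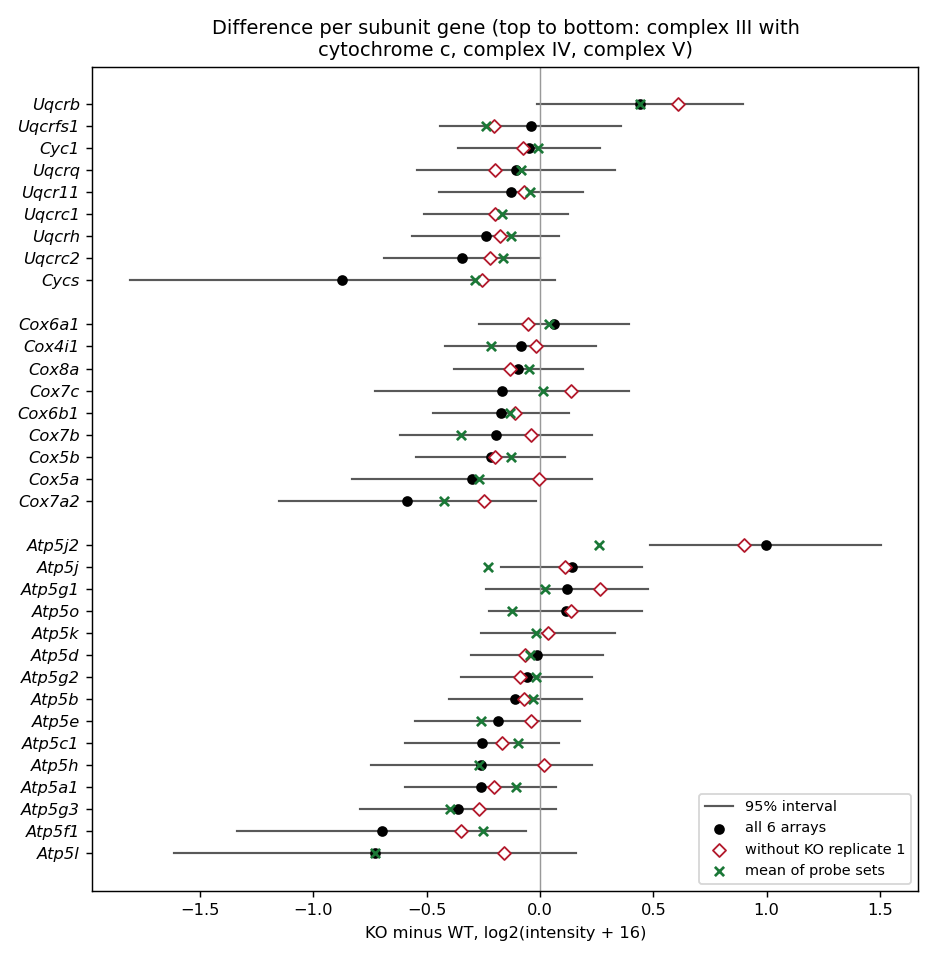
KO minus WT difference of each measured subunit gene in log2 units (horizontal axis), with the limma 95% interval (grey line) for all 6 arrays (black), and the differences without KO replicate 1 (open red) and with the mean of probe sets (green cross). Genes are grouped from complex III at the top to complex V at the bottom. Cycs, Cox7a2, Atp5l and Atp5f1 lie closer to 0 without KO replicate 1, and Atp5j2 lies closer to 0 with the mean of probe sets (0.26).

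In complex V, all 5 genes of the F1 head, which makes the ATP, had lower means in KO, with a median of -0.19 (-0.07 without KO replicate 1). Atp5b, the beta subunit with the catalytic sites, had 12.30, 12.40 and 12.43 log2 units in KO replicates 1 to 3, against 12.40, 12.49 and 12.56 in WT replicates 1 to 3. The groups overlapped, and the difference was -0.11 (SE 0.13, limma adjusted p = 0.796). Atp5a1, the alpha subunit, and Atp5c1, the gamma subunit that turns inside the head, both differed by -0.26, and by -0.11 and -0.099 with the mean of the probe sets. Atp5e, the epsilon subunit, differed by -0.19, by -0.042 without KO replicate 1 and by -0.26 with the mean of the probe sets. Atp5d, the delta subunit, differed by -0.01. KO replicate 1 was the lowest array for 4 of the 5.

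The peripheral stalk holds the head still against the rotor. Its 4 genes did not share a direction in the median of their probe sets (2 lower, median -0.07). Atp5f1, subunit b, had 8.29, 9.05 and 9.62 log2 units in KO replicates 1 to 3, against 9.65, 9.87 and 9.54 in WT replicates 1 to 3. KO replicate 3 lay inside the WT range, and KO replicate 1 far below it. The difference was -0.70 (SE 0.28, limma adjusted p = 0.425), -0.35 without KO replicate 1 and -0.25 with the mean of its 11 probe sets, of which 6 were lower in KO. Atp5h, subunit d, had 6.94, 7.74 and 7.79 in KO, against 7.73, 7.71 and 7.81 in WT, a difference of -0.26 that was 0.02 without KO replicate 1. Atp5j, coupling factor 6, differed by 0.14 and Atp5o, the oligomycin sensitivity protein, by 0.11. With the mean of the probe sets Atp5h was at -0.27, Atp5j at -0.23 and Atp5o at -0.12, so all 4 genes then had lower means in KO. Of the 11 probe sets of Atp5j, 8 were lower in KO.

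The c ring is the rotor in the membrane, and Atp5g1, Atp5g2 and Atp5g3 encode the same mature subunit c. Atp5g1 had 5.98, 6.41 and 6.43 log2 units in KO replicates 1 to 3, against 6.06, 6.17 and 6.22 in WT replicates 1 to 3, a difference of 0.12 (SE 0.16, limma adjusted p = 0.821). KO replicate 1 was the lowest array and KO replicates 2 and 3 the highest. Atp5g2 differed by -0.06 and Atp5g3 by -0.36 (limma adjusted p = 0.899 and 0.561), with overlapping groups. Without WT replicate 3 Atp5g3 was at -0.17. The gene values of the 3 thus showed no shared direction, and only Atp5g1 was positive. Atp5g1 lay close to the filter on dim genes (5.90 log2 units), and 2 of its 3 probe sets had lower means in KO. With the mean of the probe sets Atp5g1 was at 0.02.

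Of the subunits beside the ring in the membrane, Atp5j2, subunit f, had the largest difference of the 33 genes. It had 7.61, 7.51 and 7.14 log2 units in KO replicates 1 to 3, against 6.73, 6.63 and 5.92 in WT replicates 1 to 3. All KO arrays lay above all WT arrays, and WT replicate 3 was the lowest. The difference was 1.00 (SE 0.23, 95% interval 0.49 to 1.504, limma adjusted p = 0.154), and 0.90 without KO replicate 1. With the mean of the probe sets it was 0.26. Atp5l, subunit g, which helps to join ATP synthases into dimers, had the largest negative difference of complex V and rests on 1 probe set. It had 5.91, 7.52 and 7.72 in KO, against 7.69, 7.99 and 7.66 in WT. KO replicate 3 lay within the WT range and KO replicate 1 far below all other arrays. The difference was -0.73 (SE 0.40, limma adjusted p = 0.566), and -0.16 without KO replicate 1. Atp5k, subunit e, the partner of subunit g in dimers, differed by 0.03.

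The probe sets of 1 gene share that gene and are not replicates, but they show where a gene's value comes from. Of the 230 probe sets none was called over all probe sets (smallest limma adjusted p 0.527), against 0.00111% of 269751. At an unadjusted p under 0.05, 12 (5.22%) were counted, against 7.59%: 8 were lower in KO, against 4.37% of all probe sets, and 4 higher, against 3.23%. Of the 230, 167 (72.6%) had lower means in KO, against 53.0% of all. In 98 of the 230 (42.6%) the lowest array was KO replicate 1, against 26.7%.

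Atp5j2 rested on 1 of its 5 probe sets. Probe set 17455090 had 7.61, 7.93 and 7.14 log2 units in KO replicates 1 to 3, against 6.73, 6.63 and 5.78 in WT replicates 1 to 3, a difference of 1.18 (limma adjusted p = 0.564 over all probe sets). It gave the gene's median on 4 of the 6 arrays. The other 4 differed by 0.24, -0.07, -0.35 and 0.32. A sixth, shared with the predicted gene Gm6581, differed by -0.13. The probe sets of this gene therefore did not share a direction.

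Atp5f1 had 11 probe sets, and its gene value was that of probe set 17408866 on all 6 arrays. KO replicate 1 was the lowest array in 6 of the 11 and the highest in 4. Probe set 17408869 had 9.49, 11.06 and 10.79 log2 units in KO replicates 1 to 3, against 11.28, 11.31 and 11.27 in WT replicates 1 to 3. Probe set 17408870 had 10.71, 9.97 and 9.85 in KO, against 10.15, 10.12 and 10.05 in WT. Within this gene KO replicate 1 thus lay below the other arrays at some probe sets and above them at others.

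Cycs showed a related pattern over its 10 probe sets. Probe set 17358273 had 8.57, 10.28 and 10.40 log2 units in KO replicates 1 to 3, against 10.86, 10.74 and 10.55 in WT replicates 1 to 3. Probe set 17445625 had 8.28, 10.28 and 10.10 in KO, against 10.46, 10.34 and 10.20 in WT. Probe set 17466725, by contrast, had 12.22, 12.14 and 12.28 in KO, against 12.20, 12.12 and 12.15 in WT. The low Cycs value of KO replicate 1 came from the first pair, which straddle the median, and other probe sets of the gene were nearly level over all arrays. A further pair of Cycs probe sets held identical values on every array and so count as 1 measurement.

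**Figure D4:**
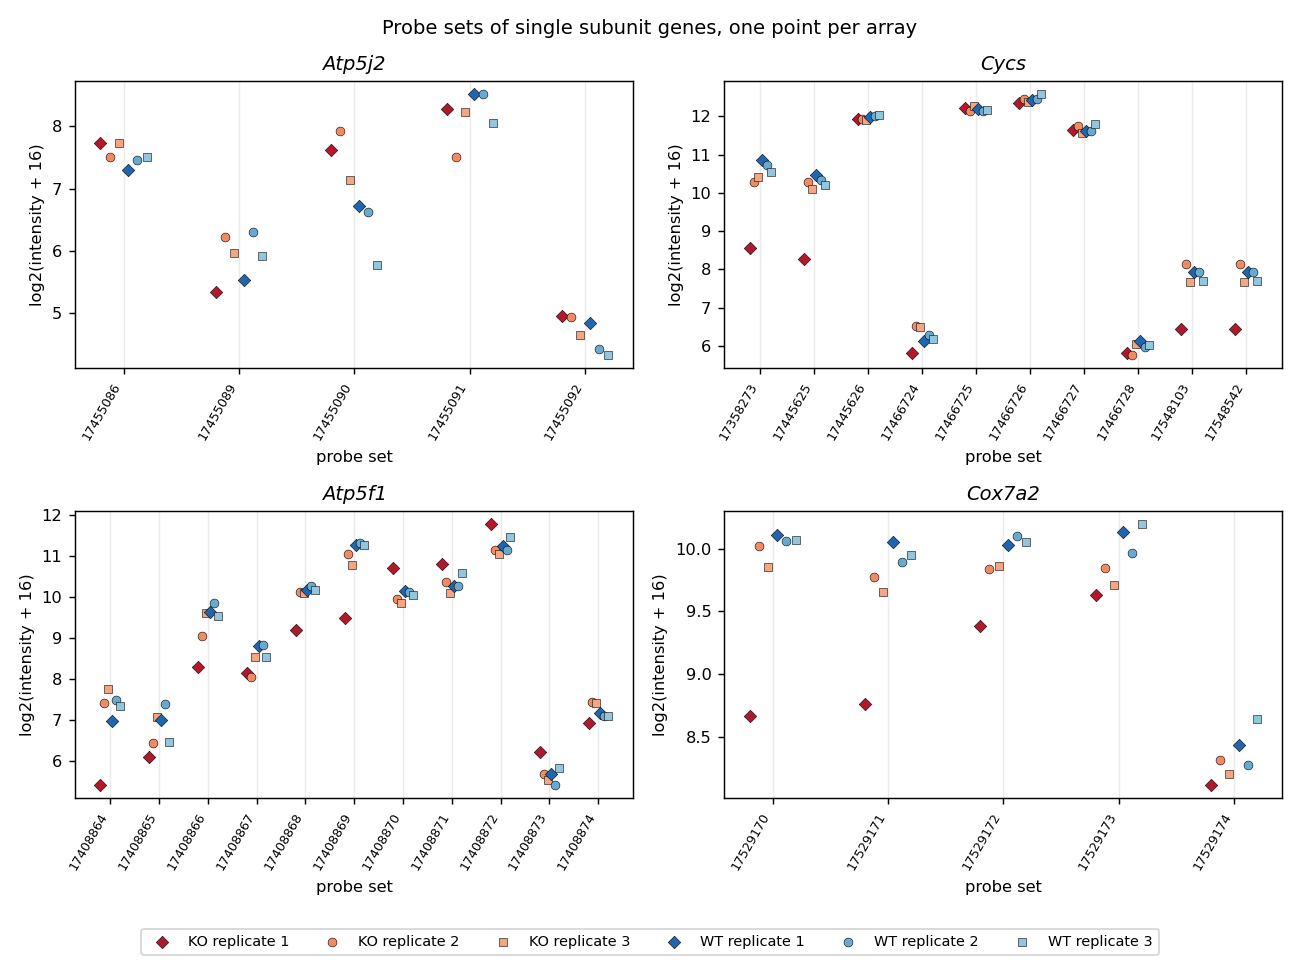
Value of each probe set of Atp5j2, Cycs, Atp5f1 and Cox7a2 on each array in log2(intensity + 16) (vertical axis), with probe sets along the horizontal axis and KO points left of WT points. KO replicate 1 (dark red) is lowest in all 5 probe sets of Cox7a2, lowest in 6 and highest in 4 of the 11 of Atp5f1, and Atp5j2 is clearly higher in KO at 1 probe set.

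To describe this spread, each probe set's value on an array was set against its mean on the other 5, and the SD of these distances was taken within a gene. Over the 29 respiratory genes with at least 4 probe sets, the median SD was 0.462 in KO replicate 1, 0.227 in KO replicate 2 and 0.208 in KO replicate 3, against 0.204, 0.231 and 0.279 in WT replicates 1 to 3. Over 11451 such genes it was 0.472, 0.311 and 0.313 in KO, against 0.307, 0.314 and 0.388 in WT. KO replicate 1 had the largest SD in 20 of the 29 genes (69.0%), against 50.4% of all. Probe sets of 1 gene thus disagreed most on KO replicate 1, in respiratory genes as in others, and the cause was not tested.

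Of the other genes of the pathway, none of those tested in the 8 lists below was called. Of complex I, which feeds electrons from NADH, 35 of 36 subunits were tested, 28 had lower means in KO and the median was -0.14 (-0.07 without KO replicate 1). Ndufc1 and Ndufv2 had the smallest p there, at -0.60 and -0.37 (limma adjusted p = 0.241 and 0.337). All 4 subunits of complex II, succinate dehydrogenase, had lower means, with a median of -0.16, Sdhc at -0.25 and Sdha at -0.17. No probe set with 1 symbol carried the names of the 13 mitochondrially encoded subunits, which were not analysed here.

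Assembly factors for the same complexes also had mostly lower means in KO. Of 7 factors for complex III and cytochrome c, 6 had lower means (median -0.16), with Uqcc2 at -0.46 and Uqcc3 at -0.26. Uqcc2 had 8.55, 8.17 and 8.24 log2 units in KO replicates 1 to 3, against 8.75, 8.79 and 8.80 in WT replicates 1 to 3 (limma adjusted p = 0.298), and KO replicate 1 was the highest KO array. Of 21 tested factors for complex IV, 17 had lower means (median -0.11). Cmc1 had 8.69, 9.27 and 8.95 in KO, against 9.64, 9.87 and 9.57 in WT, a difference of -0.72 (SE 0.18, limma adjusted p = 0.183) that was -0.58 without KO replicate 1. Pet100 differed by -0.42. All KO arrays lay below all WT arrays for 3 of the 7 factors for complex III and cytochrome c (Uqcc2, Uqcc3 and Bcs1l). They did so for 4 of the 21 for complex IV (Cmc1, Pet100, Cox19 and Cox20). Of the other lists, the same held for 7 of 35 complex I subunits, 2 of 6 complex V assembly or associated genes and 1 of 6 carriers and pores. It held for no gene of complex II, the tissue isoforms or the regulators, and 1 regulator lay higher in every KO array. The share of all genes with all KO arrays lower was 11.3%.

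Of 6 assembly or associated genes of complex V, 5 had lower means (median -0.09), with Atp5s at -0.70 and Usmg5, a small ATP synthase protein, at -0.36. Among 6 tested tissue isoforms and late additions to complex IV, 1 had a lower mean (median 0.13): Ndufa4, at -0.42. Cox7a2l, a supercomplex factor, was at 0.27. The other tested genes of this list, Cox4i2, Cox6a2, Cox6b2 and Cox7a1, were dim. Their KO means of 6.70, 6.67, 6.41 and 6.38 lay not far above the filter (5.90 log2 units). Cox7b2, Cox8b, Cox8c and Cyct fell below it. Of 6 carriers and pores that move nucleotides, phosphate and metabolites, 5 had lower means (median -0.10), with Slc25a5 at -0.24 and Vdac3 at -0.22. Of 11 tested regulators, which include Nrf1, Gabpa and Yy1, 6 had lower means (median -0.05). Polrmt, the mitochondrial RNA polymerase, was at 0.27 and Tfb1m, a methyltransferase of mitochondrial ribosomal RNA, at -0.27. None of these genes passed the test, and each list's median lies beside one of -0.05 for all genes.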

How the data were processed

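RNA of sorted Tregs from 3 KO and 3 WT mice was measured on 1 array per mouse. The deposited values are intensities on a linear scale, made by PLIER in an exon-level analysis with Affymetrix Expression Console 1.4, per the submitters' processing notes and the labels. Background correction, scaling between arrays, build and annotation release are not given in the sources used here. Of 269751 probe sets 233753 had 1 symbol, 5106 several and 30892 none. Only probe sets with 1 symbol entered gene values. Older symbols were matched through a RefSeq table (GRCm38.p6), which also gave the promoters.

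Values were taken as log2(intensity + 16), which understates differences of dim genes, and genes were given the median over their probe sets. Genes under the 40th percentile of the mean (5.90) were left out, leaving 13891 of 23152. KO was compared with WT by limma 3.58.1 in R 4.3.3 (two-sided moderated test, Benjamini-Hochberg over all genes, threshold 0.05), and probe sets likewise over all probe sets. The fit was tested on simulated data with independent noise of the same spread on every array. No simulated array stood apart from the rest, so that test does not cover such an array. An exact permutation test of 3 against 3 cannot go below 0.1. The number of arrays limits the precision.

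Values per array are given for members with an unadjusted p under 0.05, with the largest difference in each direction and with the highest and lowest mean in each complex. They are also given for members whose groups do not overlap or whose difference rests on 1 array, for shared probe sets and for Uqcc2 and Cmc1, all chosen after their values were seen. From each related list the genes past the threshold, or else the 2 with the smallest p, are named, with Park7 and 4 Treg genes (Foxp3, Il2ra, Ctla4 and Ikzf2); other marker genes and Bcs1l, Cox19 and Cox20 were chosen after their values were seen. The members and lists were chosen with earlier results of these data known. The alternatives changed the pseudocount (1 or 64), the filter (none, or the 60th percentile), the gene value (the mean of probe sets, or bright ones alone), the normalization (quantile, or centring on the median), the test (trended robust variance, or unmoderated) and the samples (each array left out), or added the replicate number as a block. Counting only members with at least 2 probe sets was added after the data were seen.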

Additional observations from a re-analysis of the deposited data

How the results depend on the processing

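No member was called under any alternative except the replicate block, where Atp5j2 passed (1.00, limma adjusted p = 0.0298, 1 of 33 called). Same-numbered KO and WT arrays deviated from their group means with correlations of 0.150, 0.169 and 0.0101. Arrays of unlike numbers were not compared in this way, so whether the replicate numbers mark pairs was not tested. With that block 67 of all genes and 7 members at an unadjusted p under 0.05 were counted, against 38 and 3 without it. That count of members was 5 with the mean of probe sets or quantile normalization. It was 1 with bright probe sets only or the unmoderated test, and 1 to 5 when single arrays were left out. The 5 with the mean of probe sets were Uqcrfs1, Uqcrb, Cox7a2, Cox7b and Atp5g3. Of the 3 counted with the median of probe sets only Cox7a2 was among them. Atp5j2 and Atp5f1 were not (limma unadjusted p = 0.0507 and 0.0777). The count of all genes was 60 with the mean of probe sets, 0 in limma's unmoderated test (9.61% at an unadjusted p under 0.05) and 4 to 37 without single arrays. Park7 stayed at -3.57 in the unmoderated test, with an adjusted p of 0.0905. Of all calls 97.4% were lower in KO, and 87.3% with quantile normalization. The median member difference ran from -0.18 to -0.073 without single arrays and was negative under every alternative. The median of complex III was -0.23 with bright probe sets only and ran from -0.23 to -0.045 without single arrays, and that of complex IV from -0.27 to -0.054. The sign of a gene's difference turned with bright probe sets only for Atp5c1 (0.065), Atp5d (0.092), Cyc1 (0.098) and Atp5k (-0.013), with the mean of probe sets for Atp5j (-0.23), Atp5k (-0.019), Atp5o (-0.12) and Cox7c (0.014), with median centring for Atp5d (0.020) and with quantile normalization for Uqcrfs1 (0.012). Without single arrays the range crossed 0 for Atp5d (-0.068 to 0.022), Atp5h (-0.41 to 0.016), Atp5k (-0.0099 to 0.089), Cox4i1 (-0.17 to 0.0043), Cox6a1 (-0.054 to 0.15), Cox7c (-0.41 to 0.14), Cyc1 (-0.12 to 0.035), Uqcrfs1 (-0.21 to 0.12) and Uqcrq (-0.32 to 0.019). The causes were not tested.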
